A study of Mus musculus with 14 samples.

Results

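Blood cells carry a characteristic set of surface receptors and signalling proteins, and 34 genes for them were followed here through the first day of forced expression of blood and vessel transcription factors in mouse embryonic stem (ES) cells. The genes were chosen by name, as adhesion receptors, cytokine receptors, other membrane proteins, signalling enzymes and actin regulators of blood cells, with transcription factors left out. Earlier results of these data were known when they were chosen. All 34 were among the 19938 genes measured. RNA came from embryoid bodies, the clusters that ES cells form as they differentiate, and was profiled on 14 Affymetrix arrays. The treated groups were cells of the inducible line iEGS or of a line named iB1 with doxycycline (1 ug per ml, added from day 2), described in the labels as co-expressing ER71/Etv2 (an ETS factor), GATA2 and Scl (encoded by Tal1). The series' design text names ER71/Etv2 and GATA2 only. A single array was taken at 6 h of doxycycline, on day 2.25, and 3 each at 12 h, on day 2.5, and at 24 h, on day 3. The control groups were cells of the same lines without doxycycline, on 1 array for day 2.25, 3 for day 2.5 and 3 for day 3. Their genotype is labelled wild-type, although their source is given as the same inducible lines. Replicates 1 and 2 were of iEGS and replicate 3 of iB1, and the replicates are described as separate experiments. No cells with doxycycline but without the factors were analysed here, so an effect of the drug itself and one of the factors cannot be told apart. All values are log2 expression, on which a step of 1 is a 2-fold change, and n is 3 arrays per group unless said otherwise.

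In the embryo, blood and endothelium arise close together from mesoderm, and ER71/Etv2, GATA2 and SCL are among the factors that take part in this development. Blood progenitors are then known by their surface: KIT is the receptor for stem cell factor, integrin alpha-IIb (CD41, Itga2b) appears early on embryonic blood progenitors and later on megakaryocytes, and CD45 (Ptprc) marks most nucleated blood cells and appears later. Below the surface, blood cells use their own versions of widely expressed proteins, such as RAC2 beside RAC1, kindlin-3 beside kindlin-2 and L-plastin beside T-plastin, to link receptors to the actin cytoskeleton.

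Of the 34 genes, 26 had a promoter in the RefSeq promoter table of GRCm38.p6 (300 bases around a transcription start, most of them before it; the 5′-most where a gene had several). Those without an entry were Rac2, Itgb3, Itgb2, Itgal, Csf1r, Csf2rb, Selplg and Cd52. The windows of the 5 genes that rose at 12 h or 24 h are shown, since ER71 and GATA2 are DNA-binding factors. Each is written 5′ to 3′ along the gene's own strand. Capitals mark GGAAG, a form of the core of ETS sites, or AGATAA, as bound by GATA factors, on either strand. Other forms of these sites were not searched, so a window without capitals may still hold them.
Lcp1 promoter, chr14:75130873-75131172 (+ strand): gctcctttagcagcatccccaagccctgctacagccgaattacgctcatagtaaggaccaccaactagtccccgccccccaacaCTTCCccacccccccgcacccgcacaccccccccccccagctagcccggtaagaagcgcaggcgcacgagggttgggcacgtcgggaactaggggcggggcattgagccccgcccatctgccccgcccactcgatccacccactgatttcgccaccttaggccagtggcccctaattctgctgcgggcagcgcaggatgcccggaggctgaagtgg
Coro1a promoter, chr7:126704767-126705066 (- strand): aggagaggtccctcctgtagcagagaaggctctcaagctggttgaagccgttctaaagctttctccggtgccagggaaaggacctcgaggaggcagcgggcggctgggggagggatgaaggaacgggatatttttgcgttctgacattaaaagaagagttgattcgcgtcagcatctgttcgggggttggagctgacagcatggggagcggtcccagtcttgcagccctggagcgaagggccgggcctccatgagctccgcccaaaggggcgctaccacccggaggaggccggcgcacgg
Fermt3 promoter, chr19:7019420-7019719 (- strand): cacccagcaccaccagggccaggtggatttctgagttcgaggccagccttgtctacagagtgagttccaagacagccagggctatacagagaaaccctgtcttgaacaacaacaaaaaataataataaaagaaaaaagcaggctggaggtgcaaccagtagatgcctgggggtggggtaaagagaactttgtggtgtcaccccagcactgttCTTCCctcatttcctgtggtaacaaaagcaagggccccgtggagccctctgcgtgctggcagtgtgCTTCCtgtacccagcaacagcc
Pf4 promoter, chr5:90772185-90772484 (+ strand): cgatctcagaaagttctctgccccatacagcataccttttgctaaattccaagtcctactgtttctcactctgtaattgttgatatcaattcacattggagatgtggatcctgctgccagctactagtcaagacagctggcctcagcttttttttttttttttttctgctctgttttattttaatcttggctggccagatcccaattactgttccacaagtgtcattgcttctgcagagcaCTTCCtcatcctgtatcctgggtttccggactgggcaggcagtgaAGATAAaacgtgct
Laptm5 promoter, chr4:130913066-130913365 (+ strand): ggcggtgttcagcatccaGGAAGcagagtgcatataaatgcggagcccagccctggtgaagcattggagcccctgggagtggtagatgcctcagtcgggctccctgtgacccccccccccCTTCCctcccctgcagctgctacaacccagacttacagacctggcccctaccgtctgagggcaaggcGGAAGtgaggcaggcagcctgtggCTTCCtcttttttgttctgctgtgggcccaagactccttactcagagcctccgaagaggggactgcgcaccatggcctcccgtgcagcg
GGAAG occurred in 23 of the 26 windows (88.5%) and in 71.1% of the windows of 27025 genes. Among the 5 windows shown, Laptm5 held 4 such matches, Fermt3 2, Lcp1 1, Pf4 1 and Coro1a 0. AGATAA occurred in 3 of the 26 windows (11.5%), those of Pf4, Cd44 and Lcp2, and in 11.4% of all windows. CAGNTG, an E-box of the kind SCL binds with a partner, occurred in 15 of the 26 (57.7%) and in 51.1% of all windows, and was searched on both strands but is not in capitals. Pf4 and Lcp2 were the 2 genes of the 26 (7.69%) whose windows held all 3 motifs, against 3.82% of all genes. No match of one motif overlapped a match of another in the 26 windows. A match of these short letters is a description of the sequence and does not show binding.

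The induced factors were higher on every array with doxycycline than on every array without it. At 12 h Gata2 rose by 4.44 ± 0.179 (SE, limma adjusted p = 1.07e-08), Etv2 by 3.11 ± 0.192 (adjusted p = 6.86e-07) and Tal1 by 2.48 ± 0.239 (adjusted p = 4.90e-05), in the test described with the methods. Correlations between arrays over all genes lay between 0.951 and 0.995. The 24 h array of replicate 3 stood somewhat apart: its SD over genes was 1.91, against at least 2.04 on the other 13 arrays, and its mean correlation with the others was 0.966, against at least 0.976. The 24 h changes were also computed without this array, and these values are given for each role. The ES and epiblast markers had mean log2 values of 9.03 to 9.29 on the day 3 controls. At 24 h 4 of these 7 genes were lower than on the day 3 controls, as were 4 of 5 mesoderm markers and 2 of 4 smooth muscle markers (3.43% of all genes). Between the control days 4 of the 5 mesoderm markers rose, with a median change of 1.97 (0.562% of all genes rose). From 12 h to 24 h of induction 1 of them fell, and their median change was -0.01 (1.25% of all genes fell). At 12 h 2 ES and epiblast and 3 mesoderm markers fell (0.577% of all genes fell). The mesoderm marker Kdr rose at 12 h by 1.96, with control arrays at 4.96 to 5.26 and induced arrays at 6.77 to 7.51. On the day 3 controls Kdr read 6.77 to 7.37. A fit with the replicate as a block called 1 mesoderm marker, Kdr, higher at 24 h (0.62, adjusted p = 0.0210, and 0.252 without the block), and at 12 h 1 smooth muscle marker, Cnn1, fell (-0.62, adjusted p = 0.0319, and 0.147 without the block). Of the 7 endothelial markers 3 rose at 12 h and 4 by 24 h (0.813% and 2.03% of all genes rose). On day 3 their mean was 4.59 to 4.82 on the control arrays and 6.22 to 6.92 on the induced arrays. The block added Pecam1 at 24 h (0.81, adjusted p = 0.00442, and 0.259 without it), which made 5 of 7.

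Few of the blood genes differed from the controls of the same day, and none were called lower. At 12 h, 2 of 34 rose, namely Lcp1 and Coro1a (5.88%), where 0.813% of all 19938 genes rose, 0.577% fell and 1.39% changed in either direction. At 24 h, 4 of 34 rose, namely Lcp1, Pf4, Laptm5 and Fermt3 (11.8%), where 2.03% of all genes rose, 3.43% fell and 5.46% changed. Both shares lie above those of all genes, but the genes were chosen with earlier results of these data known. The part of that choice in the shares cannot be told, and no test of the list as a whole was made. A call here is a Benjamini-Hochberg adjusted p under 0.05 over all 19938 genes in limma. Without this adjustment, 6 genes were higher and 1 lower at 12 h at p under 0.05. Of all genes 3.73% were higher and 3.23% lower (6.96% in either direction). At 24 h 8 were higher and 0 lower, and of all genes 6.39% were higher and 9.75% lower (16.1% in either direction).

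**Figure D1:**
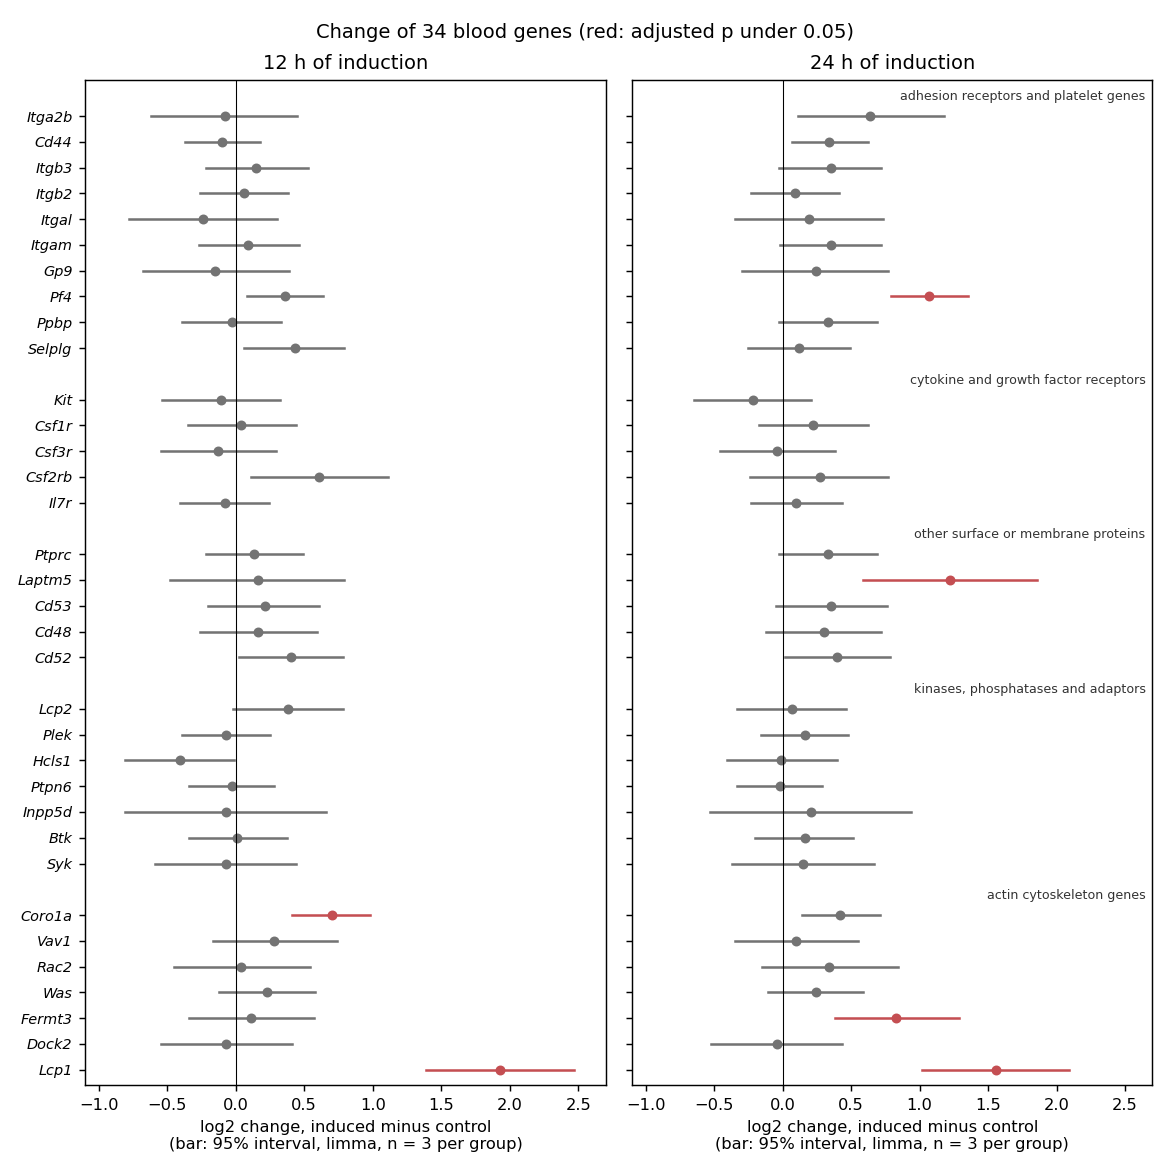
Log2 change (x axis, induced minus control of the same day) of each of the 34 blood genes at 12 h (left) and 24 h (right), ordered by role, with points for the estimate and bars for its 95% interval from limma (n = 3 per group). Red marks an adjusted p under 0.05: Lcp1 and Coro1a at 12 h, and Lcp1, Laptm5, Pf4 and Fermt3 at 24 h; most other intervals include 0.

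The induced and control arrays did not overlap for 7 genes at 12 h in the upward direction (6.78% of all genes), which were Lcp1, Coro1a, Pf4, Csf2rb, Selplg, Lcp2 and Cd52. In the downward direction Hcls1 alone did not overlap (7.72% of all genes). At 24 h, 8 genes did not overlap upward (7.6% of all genes), which were Lcp1, Pf4, Laptm5, Fermt3, Coro1a, Itga2b, Cd44 and Cd52, and 0 did downward (10.9% of all genes). Set by same-numbered pairs of arrays, 10 genes were higher in all 3 pairs at 12 h (29.4%, against 17% of all genes). At 24 h 19 were (55.9%, against 19.1% of all genes). Lower in all 3 pairs were 3 genes at 12 h (8.82%, against 20.6% of all genes) and 0 at 24 h (20.4% of all genes).

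The median change of the 34 genes was 0.05 at 12 h, where that of all genes was -0.01, and 0.24 at 24 h, where that of all genes was 0.00. At 24 h, 29 of the 34 changes were above 0, against 49.3% of all genes. Most of the list was dim: 25 of the 34 had a mean signal under 4.95, the value that 40% of all genes lie below, and dim genes in general had more changes above 0 than below it at 24 h. The 7975 genes under that value had a median change of 0.12 with 73.4% above 0, beside a median of 0.24 with 22 of 25 above 0 for the dim blood genes. Without the 24 h array of replicate 3, the dim genes in general were at 0.03, with 56.6% above 0, and the 34 blood genes at 0.15, with 30 above 0. When the arrays were quantile-normalized once more, the values at 24 h were 0.03 for dim genes and 0.14 for the 34 genes. The part of the dim genes' shift in the positive median was not tested. Among the 25 dim blood genes, 2 rose at 24 h (Pf4 and Fermt3, 8%), where 0.69% of all dim genes rose, and the arrays of 4 did not overlap upward (16%), where 9.07% of all dim genes did not. At 24 h 14 of the 25 were higher in all 3 same-numbered pairs (56%), where 29.5% of all dim genes were.

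**Figure D2:**
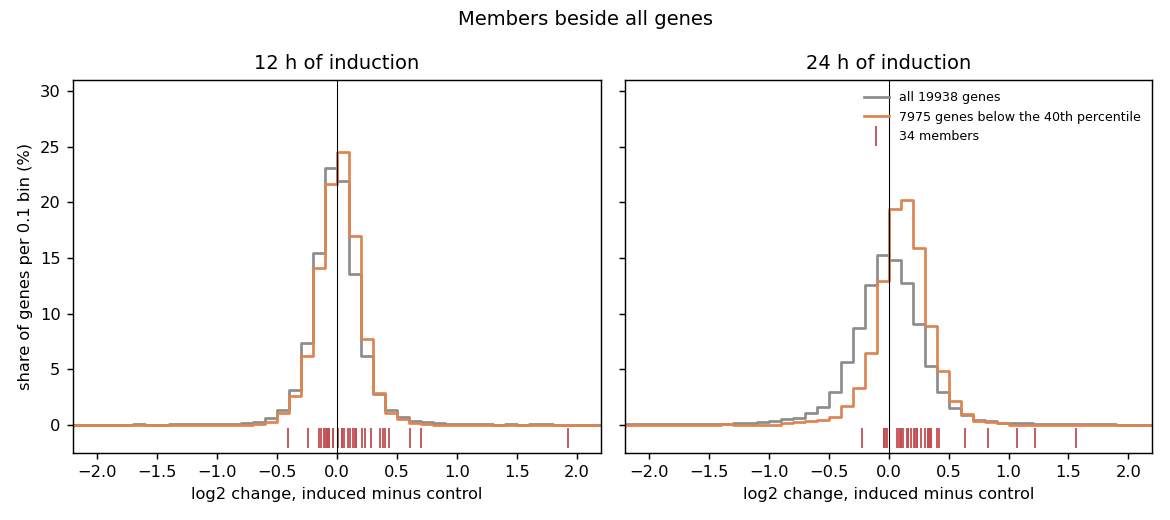
Share of genes (y axis, %) per 0.1 step of log2 change (x axis, cut at -2.2 and 2.2) at 12 h and 24 h, for all 19938 genes (grey) and the 7975 dim genes (orange), with red ticks under the curves for the 34 blood genes. At 24 h the orange curve lies to the right of the grey one, with medians of 0.12 and 0.00, and the ticks centre on 0.24 with 4 called genes at 0.83 or more.

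Of the 7 actin cytoskeleton genes, 2 rose at 12 h (Lcp1 and Coro1a; 0.813% of all genes rose) and 2 at 24 h (Lcp1 and Fermt3; 2.03% of all genes rose), with median changes of 0.23 and 0.34. The roles were not tested against each other. Lcp1, which encodes L-plastin, the actin-bundling protein of blood cells, was higher from 6 h on. Its log2 values were 5.55, 4.89 and 4.68 on the day 2.5 controls (replicates 1 to 3) and 7.28, 6.64 and 6.98 after 12 h. They were 5.45, 5.47 and 5.36 on the day 3 controls and 7.50, 6.84 and 6.60 after 24 h. Every induced array thus lay above every control array. Lcp1 rose by 1.93 ± 0.250 at 12 h (SE, 3.81-fold, limma adjusted p = 0.000586). Its rise at 24 h was 1.56 ± 0.250 (2.94-fold, adjusted p = 0.00124). The difference between both effects was -0.37, with a 95% interval of -1.13 to 0.39. At 6 h the single induced array read 6.63 and its control 5.09, a 2.91-fold difference with no replicate. Lcp1 was the 1 gene of the 34 past 2-fold at 6 h, where 0.221% of all genes were at least 2-fold higher and 0.135% lower. Without replicate 2, its adjusted p was 0.0587 at 12 h and 0.0536 at 24 h, with changes of 2.02 and 1.65.

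Coro1a encodes coronin-1A, an actin regulator of leukocytes, and was higher at 12 h, with lower readings on day 3 than on day 2.5 in both conditions. It read 6.44, 6.19 and 6.48 on the day 2.5 controls and 7.10, 7.0 and 7.11 after 12 h. On day 3 the controls read 5.82, 5.92 and 5.90 and the induced arrays 6.20, 6.47 and 6.24. The induced arrays lay above the controls of the same day at both times, while the 24 h arrays overlapped the day 2.5 controls. Coro1a rose by 0.70 ± 0.133 at 12 h (1.62-fold, limma adjusted p = 0.0134), and its 24 h change of 0.42 ± 0.133 had an adjusted p of 0.0950. Between 12 h and 24 h of induction it fell by 0.77 ± 0.133 (limma adjusted p = 0.00784), and the controls over the same days differed by -0.49 (adjusted p = 0.157). The 12 h call was lost without replicate 1 (0.0820), replicate 2 (0.371) or replicate 3 (0.242), and without the day 2.5 control array of replicate 2 (0.0656), the 12 h array of replicate 1 (0.0718) or that of replicate 3 (0.0782), with changes of 0.61 to 0.73.

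Fermt3 encodes kindlin-3, which activates integrins in platelets and leukocytes. Its values were 4.32, 5.15 and 4.91 on the day 2.5 controls and 4.55, 5.13 and 5.04 after 12 h, so that these groups overlapped. On day 3 they were 4.45, 4.83 and 4.76 in the controls and 5.46, 5.40 and 5.67 after 24 h, with every induced array above every control. The change was 0.11 ± 0.212 at 12 h (limma adjusted p = 0.999), and Fermt3 rose by 0.83 ± 0.212 at 24 h (1.78-fold, adjusted p = 0.0332). With the replicate as a block, the 24 h rise of Fermt3 had a limma adjusted p of 0.00251. The 24 h call was lost in 9 of 25 alternatives, more than for the other 3 genes. Among these were the limma fits without replicate 2 (adjusted p = 0.151), without replicate 3 (0.329), without any 1 of the 3 day 3 control arrays (0.161, 0.0622 and 0.0792) and without the 24 h array of replicate 2 (0.0681) or replicate 3 (0.104), with changes of 0.71 to 0.96. The other 4 genes of this role were Vav1, a guanine nucleotide exchange factor of blood cells, Rac2, the blood cell form of RAC, Was, the Wiskott-Aldrich actin nucleation regulator, and Dock2, an activator of RAC. Their changes lay between -0.07 and 0.28 at 12 h and between -0.04 and 0.34 at 24 h, and none passed the test. Without the 24 h array of replicate 3 the 24 h changes were 0.01 for Vav1, 0.09 for Rac2, 0.34 for Was and -0.09 for Dock2, and 1.75 for Lcp1 and 0.45 for Coro1a.

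**Figure D3:**
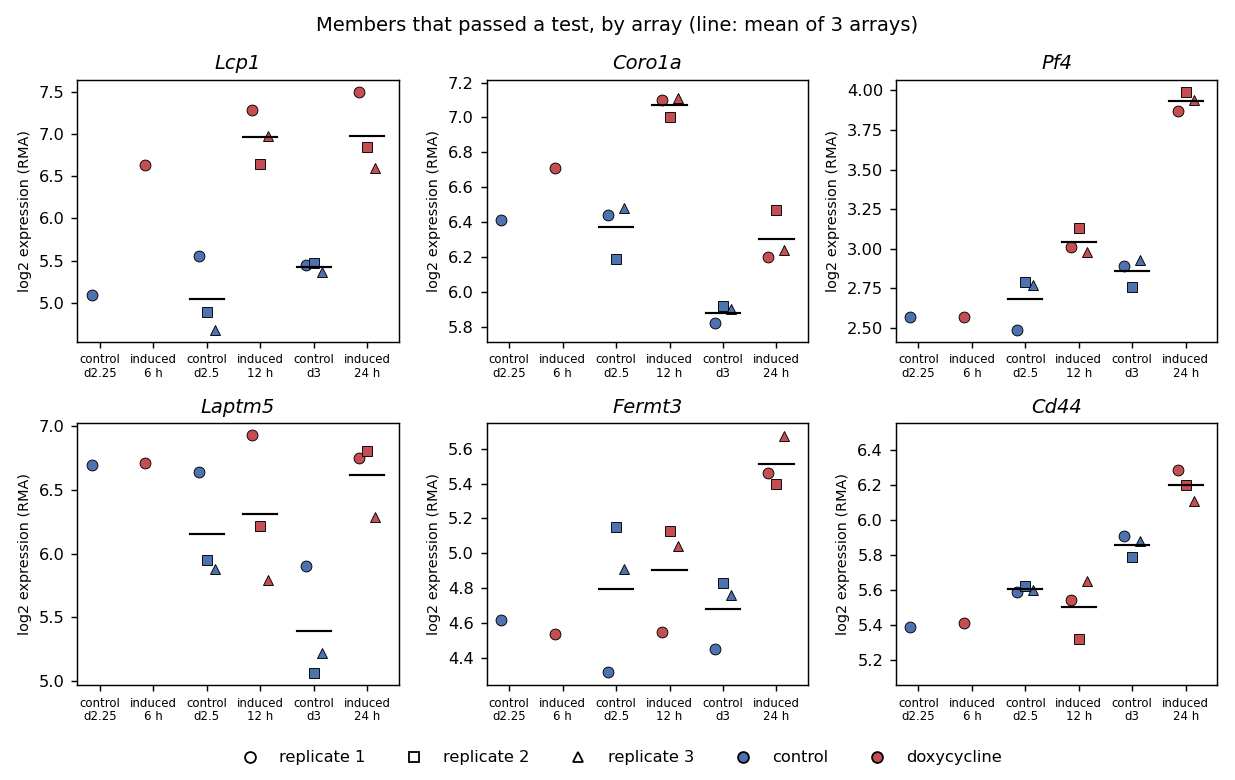
Log2 expression (y axis, a separate range for each gene) on each of the 14 arrays for Lcp1, Coro1a, Pf4, Laptm5, Fermt3 and Cd44, by group (x axis), with blue for control and red for doxycycline, the shape for the replicate and a line for the mean of 3 arrays. Lcp1 is high from 6 h (6.63) on, Pf4 sits at 3.87 to 3.99 after 24 h above all other arrays, and the Laptm5 controls are lower on day 3 (5.06 to 5.90) than on day 2.5 (5.88 to 6.64).

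Of the 10 adhesion receptors and platelet genes, 0 rose at 12 h and 1, Pf4, rose at 24 h (0.813% and 2.03% of all genes rose). Pf4 encodes platelet factor 4, a chemokine stored in the granules of megakaryocytes and platelets. It read 2.49, 2.79 and 2.77 on the day 2.5 controls, 3.01, 3.13 and 2.98 after 12 h, 2.89, 2.76 and 2.93 on the day 3 controls, and 3.87, 3.99 and 3.94 after 24 h. The 24 h arrays lay close together and above all 11 others. The change of 0.36 ± 0.130 at 12 h missed the threshold (limma adjusted p = 0.398), although those arrays did not overlap either. Pf4 rose by 1.07 ± 0.130 at 24 h (2.10-fold, adjusted p = 0.000107), with pair differences of 0.98, 1.23 and 1.00. From 12 h to 24 h of induction it rose by 0.89 (limma adjusted p = 0.00256). Its 24 h signal was still under the 4.95 that 40% of genes lie below. The 24 h call held in all 25 alternative analyses that kept dim genes, with adjusted p up to 0.0287.

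The partner platelet genes did not pass the test. Itga2b, the CD41 integrin chain, read 4.51, 5.0 and 4.80 on the day 3 controls and 5.83, 5.36 and 5.05 after 24 h, which do not overlap, and 4.46, 5.46 and 4.74 on day 2.5 beside 4.70, 5.03 and 4.67 after 12 h, which do. Its 24 h change was 0.64 ± 0.249 (95% interval 0.11 to 1.18, limma adjusted p = 0.202, and 0.0832 with the replicate as a block). The pair differences were 1.32, 0.36 and 0.25. Itgb3, the integrin chain that pairs with CD41 on platelets, read 4.63, 4.80 and 4.80 on day 3 and 5.49, 5.09 and 4.70 after 24 h. On day 2.5 it read 4.61, 4.82 and 4.72 in the controls and 4.80, 5.0 and 4.81 after 12 h. The groups overlapped on both days, and its 24 h change was 0.35 ± 0.175 (95% interval -0.03 to 0.72, adjusted p = 0.354), with replicate 1 the highest array for both integrin chains. Gp9, a subunit of the platelet receptor for von Willebrand factor, and Ppbp, another platelet chemokine, had 24 h changes of 0.24 and 0.33, neither past the threshold. Without the 24 h array of replicate 3 the 24 h change was 1.07 for Pf4, 0.82 for Itga2b, 0.54 for Itgb3, 0.11 for Gp9 and 0.24 for Ppbp.

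Cd44, the hyaluronan receptor, read higher on day 3 than on day 2.5 with and without doxycycline. Its control arrays read 5.59, 5.62 and 5.60 on day 2.5 and 5.91, 5.79 and 5.88 on day 3, and its induced arrays 5.54, 5.32 and 5.65 at 12 h and 6.29, 6.20 and 6.11 at 24 h. The 12 h groups overlapped, and the 24 h arrays lay above their controls. The change was -0.10 ± 0.128 at 12 h and 0.34 ± 0.128 at 24 h (95% interval 0.07 to 0.62, limma adjusted p = 0.180). From 12 h to 24 h of induction Cd44 rose by 0.70 ± 0.128 (adjusted p = 0.0118), and the controls of the same days differed by 0.26 (adjusted p = 0.820). The leukocyte integrin chains Itgb2, Itgal and Itgam and the selectin ligand Selplg had 24 h changes of 0.09, 0.19, 0.35 and 0.12. Without the 24 h array of replicate 3 these were 0.11, 0.03, 0.18 and 0.11, and that of Cd44 was 0.39. Selplg did not overlap at 12 h, with a change of 0.43 ± 0.171 (limma adjusted p = 0.521).

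Of the 5 other surface or membrane proteins, 1, Laptm5, rose at 24 h, where 2.03% of all genes rose. All 5 changes at 24 h were 0.30 or more (median 0.35). This rested on the 24 h array of replicate 3: without it Cd53 was at 0.21, Cd52 at 0.20 and Cd48 at 0.07, with Laptm5 at 1.39 and Ptprc at 0.33. Laptm5 encodes a lysosomal membrane protein of blood cells. It read 6.64, 5.95 and 5.88 on the day 2.5 controls and 6.93, 6.22 and 5.79 after 12 h, with replicate 1 the highest in both groups. On day 3 it read 5.90, 5.06 and 5.22 in the controls and 6.75, 6.81 and 6.29 after 24 h, and these groups did not overlap. The change was 0.16 ± 0.297 at 12 h, and Laptm5 rose by 1.22 ± 0.297 at 24 h (2.33-fold, limma adjusted p = 0.0244). The day 3 controls were lower than the day 2.5 controls in each replicate, by 0.74, 0.89 and 0.66, while the induced arrays differed by 0.30 between 12 h and 24 h (adjusted p = 0.744). The control difference had a limma adjusted p of 0.541, and of 0.0365 with the replicate as a block. In that block fit the 24 h rise of Laptm5 had an adjusted p of 0.000234. The 24 h call was lost in 7 of 26 alternatives. These were the limma fits without replicate 2 (adjusted p = 0.472) or replicate 3 (0.0995), and without the day 3 control array of replicate 2 (0.121) or replicate 3 (0.107). The others were without the 24 h array of replicate 2 (0.104), with array weights (0.364) and with all probe sets tested (0.101). The changes in these fits were 0.96 to 1.30.

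Ptprc, which encodes CD45, read 3.0, 3.14 and 3.08 on the day 2.5 controls and 3.20, 3.04 and 3.38 after 12 h, then 3.22, 3.30 and 3.09 on day 3 and 3.19, 3.87 and 3.53 after 24 h. The groups overlapped at both times, and the day 3 arrays of replicate 1 were nearly level. Its 24 h change was 0.33 ± 0.167, with a 95% interval of -0.03 to 0.69 (limma adjusted p = 0.357). Cd52, a small glycoprotein of lymphocytes, had changes of 0.40 at 12 h and 0.40 at 24 h with arrays that did not overlap either time (adjusted p = 0.650 and 0.282). The tetraspanin Cd53 and the SLAM-family ligand Cd48 had 24 h changes of 0.35 and 0.30.

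None of the 5 cytokine and growth factor receptors passed the test at either time, and their median changes were -0.08 and 0.10. Kit, the receptor for stem cell factor, read 7.67, 7.43 and 7.52 on the day 2.5 controls and 7.54, 7.45 and 7.30 after 12 h. On day 3 it read 8.17, 7.77 and 7.96 in the controls and 8.23, 7.74 and 7.28 after 24 h. The groups overlapped at both times, and the 24 h array of replicate 3 was the lowest of the day. The change of Kit was -0.11 (95% interval -0.54 to 0.32) at 12 h and -0.22 (95% interval -0.65 to 0.21, limma adjusted p = 0.651) at 24 h. Without the 24 h array of replicate 3 it was 0.02, so the direction turned. Csf1r, the receptor of macrophage colony-stimulating factor, read 3.87, 4.02 and 3.76 on day 3 and 3.97, 4.09 and 4.26 after 24 h, and 3.87, 4.45 and 3.69 on day 2.5 beside 3.91, 4.21 and 4.03 after 12 h. These groups overlapped, with a 24 h change of 0.22 (95% interval -0.17 to 0.62, adjusted p = 0.605). Csf2rb, the shared signalling chain of the receptors for several interleukins and GM-CSF, had the largest change of the role. It was 0.61 ± 0.234 at 12 h, with arrays that did not overlap (limma adjusted p = 0.460, and 0.0550 with the replicate as a block). At 24 h it was 0.27, or 0.01 without the 24 h array of replicate 3. The G-CSF receptor Csf3r and the interleukin receptor chain Il7r were at -0.04 and 0.10 at 24 h. Without that array they were at -0.24 and 0.05, and Csf1r was at 0.15.

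**Figure D4:**
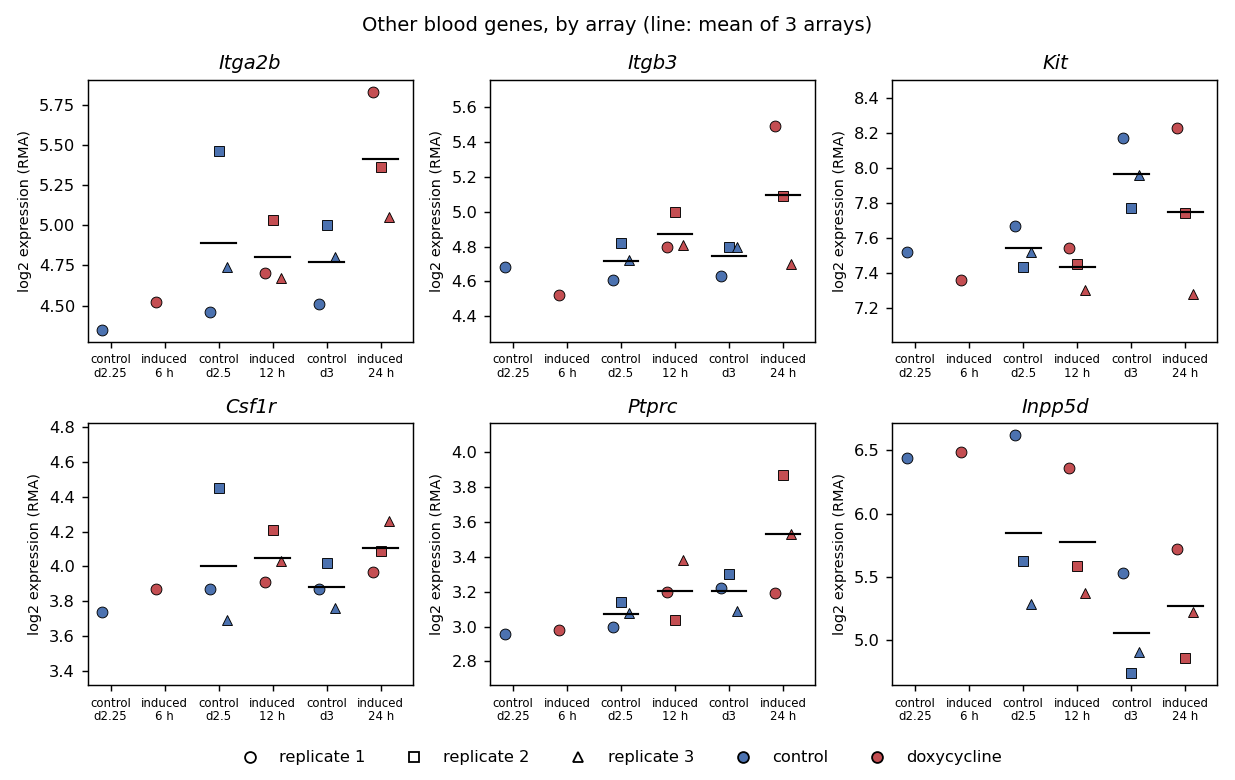
Log2 expression (y axis, a separate range for each gene) on each of the 14 arrays for Itga2b, Itgb3, Kit, Csf1r, Ptprc and Inpp5d, by group (x axis), with blue for control and red for doxycycline, the shape for the replicate and a line for the mean of 3 arrays. None passed the induction test: Itga2b lies above its controls at 24 h (5.05 to 5.83 against 4.51 to 5.0), the induced and control arrays of the other 5 genes overlap on both days, and Inpp5d reads lower on day 3 than on day 2.5 in each control replicate.

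The 7 kinases, phosphatases and adaptors also held no call, with median changes of -0.07 at 12 h and 0.15 at 24 h. They were the tyrosine kinases Syk and Btk, the phosphatases Ptpn6 (SHP-1) and Inpp5d (SHIP1), the adaptors Lcp2 (SLP-76) and Hcls1, and the protein kinase C substrate Plek. At 24 h their changes ran from -0.02 (Ptpn6) to 0.21 (Inpp5d). Hcls1 read lower on every 12 h array than on every control, with a change of -0.41 (limma adjusted p = 0.695), and Lcp2 higher, with a change of 0.38 (adjusted p = 0.785). Both had 24 h changes near 0, of -0.01 and 0.07. Without the 24 h array of replicate 3 these were 0.10 and -0.14, and the changes of Syk and Btk were 0.39 and 0.04 in place of 0.15 and 0.16. Those of Inpp5d, Plek and Ptpn6 were 0.23, 0.16 and -0.01. The Ptpn6 values lay between 6.15 and 6.64 over all 14 arrays.

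Between the control days 0 of the 34 genes passed the test (0.757% of all genes did). At an unadjusted limma p under 0.05, 3 were lower (8.82%) and 0 higher. Of all genes 3.33% were lower and 3.22% higher at that limit (6.56% in either direction). With the replicate as a block, 2 fell from day 2.5 to day 3, where 0.737% of all genes fell: Inpp5d, with a change of -0.78 and pair differences of -1.09, -0.89 and -0.37 (adjusted p = 0.691 without the block and 0.0190 with it), and Laptm5, given above. Leaving out the day 2.5 control array of replicate 1 took the Inpp5d change to -0.40 and that of Laptm5 to -0.52. Kit read higher on all day 3 controls than on all day 2.5 controls, by 0.43 ± 0.201 (limma adjusted p = 0.772).

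Between 12 h and 24 h of induction 3 of the 34 genes changed, where 1.81% of all genes did: Pf4 and Cd44 rose (0.557% of all genes rose) and Coro1a fell (1.25% of all genes fell). With the replicate as a block Fermt3 rose too, by 0.60 (adjusted p = 0.0416, and 0.224 without the block; 1.2% of all genes rose in that fit). At an unadjusted limma p under 0.05 there were 5 (12.1% of all genes). All 3 calls were lost without replicate 2 (adjusted p = 0.154 for Pf4, 0.365 for Cd44 and 0.138 for Coro1a) or replicate 3 (0.123, 0.123 and 0.261). Cd44 and Coro1a also lost theirs without replicate 1 (0.0597 and 0.0523), and Cd44 without the 12 h array of replicate 2 (0.0784). When the 24 h effect was tested against the 12 h effect, 0 of the 34 genes passed (0.426% of all genes did). At an unadjusted limma p under 0.05 there were 4, all with the larger effect at 24 h: Laptm5 with a difference of 1.07, Pf4 with 0.72, Fermt3 with 0.72 and Cd44 with 0.44 (adjusted p from 0.179 to 0.789). Of all genes 5.71% were past that limit in either direction, and 2.13% with a difference above 0. A gene called at 1 time alone is therefore not shown to differ between the times.

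At 6 h the 34 genes had a median difference of 0.01 between the 2 arrays. Apart from Lcp1 they lay between -0.56 (Ppbp) and 0.35 (Csf2rb), and Pf4 (2.57 on both arrays), Laptm5 (6.70 and 6.71) and Fermt3 (4.62 and 4.54) were close to their controls.

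A further 59 blood surface and signalling genes were listed, of which 50 were measured. At 12 h 1 of the 50 rose and at 24 h 6 rose, and 0 fell at either time, with medians of 0.12 and 0.18. Of all genes 0.813% rose and 0.577% fell at 12 h, and 2.03% rose and 3.43% fell at 24 h. Arhgdib rose by 1.63 ± 0.239 at 12 h (limma adjusted p = 0.00170). Its rise at 24 h was 2.11 ± 0.239 (adjusted p = 5.43e-05). The others at 24 h were Vav3, an exchange factor (1.81), Rasgrp2, a Rap activator of platelets (1.60), the adaptors Grap2 (1.23) and Lat (0.75), and the progenitor and endothelial antigen Cd34 (0.86). With the replicate as a block 2 rose at 12 h, with Rasgrp2 (0.66, adjusted p = 0.0140, and 0.0519 without the block), and 8 at 24 h, with Itgb7 (0.75, 0.0296 and 0.0718) and Gmfg (0.49, 0.0263 and 0.0723). In that fit 1.24% of all genes rose at 12 h and 3.06% at 24 h. Vav3 and Grap2 rose where Vav1, the relative of Vav3, and Lcp2, the partner of Grap2, had 24 h changes of 0.10 and 0.07; these differences were not tested.

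Of 29 widely expressed paralogues or partners, all measured, 0 rose and 0 fell at 12 h. At 24 h 0 rose and 5 fell, with a median of -0.09, where 2.03% of all genes rose and 3.43% fell. The block gave 1 that rose at 24 h, the tetraspanin Cd9 (0.54, adjusted p = 0.0417, and 0.0830 without the block). T-plastin (Pls3), the counterpart of Lcp1 in other tissues, fell by 0.66 ± 0.166 at 24 h (limma adjusted p = 0.0300): it read 8.72, 8.66 and 8.63 on the day 3 controls and 8.20, 8.06 and 7.78 after 24 h, with every induced array lower. Pdgfra, a receptor tyrosine kinase of the family of Kit and Csf1r, fell by 2.78, the PDGF receptor-like gene Pdgfrl by 0.97, Itgb5, a relative of Itgb3, by 0.95, and Inppl1 (SHIP2), the relative of Inpp5d, by 0.57. Pdgfra was also on the mesoderm list and is counted there too. Its control arrays read 5.38 to 5.98 on day 2.5 and 7.34 to 8.06 on day 3. Coro1b, Coro1c, Fermt2 and Rac1, relatives of Coro1a, Fermt3 and Rac2, had 24 h changes of -0.05, 0.11, -0.17 and 0.05, and none passed. The difference between the change of a blood gene and that of its relative was not tested. Of 14 ligands of the receptors measured among 16 listed, Icam2, which binds the integrin LFA-1 and is also an endothelial gene, rose by 1.05 at 12 h (limma adjusted p = 0.0259). Its 24 h rise was 1.80 (limma adjusted p = 0.000102). With the replicate as a block the 12 h count of ligands was 2, with Fn1. Fn1 read 9.69 to 10.66 on the day 2.5 controls and 10.28 to 11.06 after 12 h, so that these groups overlapped.

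The blood genes were set beside markers of cells that embryoid bodies or their feeder layer could hold. In bulk RNA, more cells of a type and more RNA per cell cannot be told apart. Of 8 macrophage markers 0 passed at either time, and their mean log2 value was 4.20 to 4.33 on the day 3 controls and 4.13 to 4.68 after 24 h. With the replicate as a block Tyrobp rose at 24 h (0.69, adjusted p = 0.0295, and 0.211 without the block). Of 5 mast cell markers and 6 primitive erythroid markers 0 passed, with means of 3.24 to 3.52 and 4.19 to 4.36 on the day 3 controls and 3.39 to 3.73 and 4.21 to 4.53 after 24 h. Thy1, which stood on both the lymphocyte and the fibroblast feeder list, rose by 0.98 at 24 h (limma adjusted p = 0.0342). At 12 h it was at 1.02, with an adjusted p of 0.0719, and of 0.00176 with the replicate as a block. The other measured markers of these lists, 3 and 6, did not pass. The feeder list's mean was 4.78 to 5.10 on the day 3 controls and 4.94 to 5.32 after 24 h, and that of the lymphocyte list 4.64 to 4.89 and 5.05 to 5.42. Log2 array values have no 0, so absence of a marker cannot be read from them, and the part of these lists and of the endothelial list in the changes of the blood genes was not tested.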

How the data were processed

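RNA of 14 samples, 1 array each, was amplified and labelled before hybridisation, per the labels' protocols. The authors deposited log2 expression values for 35556 probe sets, for which the submitters' processing notes name RMA and Affymetrix Expression Console without versions. By the platform annotation 21789 probe sets had 1 gene symbol, 1621 several and 12146 were not listed; RefSeq's gene table (GRCm38.p6) held 21698 of the first and changed 0 symbols. Each gene was read from its probe set of highest mean over all 14 arrays (999 genes, and 0 of the 34, had several), which left 19938 genes.

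From these values a group-means model over the 12 replicated arrays was fitted with limma 3.58.1 in R 4.3.3 (lmFit, contrasts, eBayes; 8 residual and 6.05 prior degrees of freedom), tested on simulated data first, with Benjamini-Hochberg adjustment over all genes and a call at an adjusted p under 0.05. Arrays of day 2.25 were not tested and were counted past 2-fold. The number of arrays limits the precision.

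Replicate numbers were taken to pair the arrays, since replicate 3 was of another cell line in every group, and since the deviations of same-numbered induced and control arrays from their group means correlated at 0.157 to 0.573 on both days. The 24 h array of replicate 3 correlated better with a control of another number (0.375) than with its own (0.261). For the pairs across time the same-number correlations ran from -0.00474 to 0.556. The fit with the replicate as a block is printed where it changes an induction call among the genes and lists described, for Fn1 as a count alone. It is also given for Fermt3 and Laptm5 at 24 h, whose calls it kept, and for Csf2rb at 12 h and Itga2b at 24 h, which it left uncalled.

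The 34 genes, the other lists and the motifs were chosen with earlier results of these data known. Values of every array are given for genes called at 12 h or 24 h and for Itga2b, Kit, Ptprc, Pf4, Csf1r, Itgb3 and Cd44; other genes are given by their range, their change or counts. Of the further lists, up to 6 called genes of largest change are named. Of 160 listed entries 146 were measured. As alternatives, the fit took the replicate as a block or the line as a covariate, and used other normalizations and gene summaries, a filter on dim genes, other fits, and leaving out each replicate or array.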

Additional observations from a re-analysis of the deposited data

How the results depend on the processing

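The counts of called blood genes were small and moved with single arrays. Over the 15 settings that left out a replicate or an array, the count was 0 to 2 at 12 h, 1 to 4 at 24 h, 0 for the changed effect, 0 between control days and 0 to 3 between induced times. Array weights gave 6 at 12 h (adding Pf4, Csf2rb, Selplg and Cd52), 2 at 24 h, 3 between control days and 0 between induced times, in a weight estimate that did not converge. At 24 h, leaving out dim genes gave 2, by its construction without Pf4 and Fermt3, and testing all probe sets gave 2. Between induced times, fitting only the groups compared gave 1. The replicate block gave 2 between control days and changed no other count of the 34 genes by over 1.5 times. Among the further lists it gave, at 12 h, 2 blood genes and 2 ligands, and at 24 h 8 blood genes and 1 rising paralogue. Coro1a at 24 h passed when arrays were quantile-normalized once more (adjusted p = 0.0349). The causes were not tested, apart from the dim filter. No change of a called gene reversed. Fitting only the groups compared gives no value for the changed effect.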
